A study of Mus musculus with 19 samples.

Results

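The 40 genes described here encode proteins by which cardiac fibroblasts and the extracellular matrix (ECM) are known: collagens, proteoglycans, elastic fibre and matricellular proteins, enzymes that crosslink or cut the matrix, and fibroblast receptors, transcription factors and cytoskeletal proteins. They are a named list of 40 of the 21000 protein-coding genes of the curated RefSeq annotation of GRCm38.p6 (the assembly of mm10), and all 40 were found there, 1 of them (Ctgf) under its newer symbol Ccn2. No measured value entered the choice of a member, although the list was drawn up with earlier results of these data known. The readout was the percent of a gene's span, from its first to its last annotated base, that lay under peaks of 5-hydroxymethylcytosine (5-hmC).

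Cardiomyocytes (CMCs) of male mice were isolated at 4 points, with 2 biological replicates each: embryos at E14.5, pups of 1 to 2 days, adults of 2 months, and adults operated on 1 week earlier. The operation, transverse aortic constriction (TAC), ties a ligature around the aorta so that the heart pumps against a raised pressure. No gene was altered at any point, and the labels do not say that the adult mice had sham surgery. Sheared DNA carrying 5-hmC was precipitated with an antibody (hMeDIP) and sequenced beside input DNA. Embryonic and neonatal cells came from digested ventricles and were freed of attached cells by preplating, whereas adult and TAC cells came from perfused left ventricles and were enriched by sedimentation, so that other cardiac cells were depleted but not removed, and the way of isolation differed between the points.

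5-hmC is made by TET enzymes from 5-methylcytosine, mostly at CpG sites, and is typically found along the body of genes that a cell type uses. Fibrillar collagens, lumican, periostin and the transcription factor Tcf21 are hallmarks of fibroblasts, which make most of the interstitial matrix of the heart, whereas type IV collagen forms the basement membrane that surrounds each CMC. The list therefore asks how the mark lay, in cells enriched for CMCs, on genes that belong largely to another lineage. Pressure overload is known for fibrosis, in which these genes are induced in fibroblasts.

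The 8 lists held between 104215 and 153637 peaks, with a median width of 501 bp in each, and between 131 and 215 of them lay on the 40 genes. Only peak positions are in the lists, without reads or heights, so the depth of each library is unknown. A more deeply sequenced library could yield more peaks. The paper states lower bounds for the reads per condition, and reports from a saturation analysis that its data sufficed for a saturated profile. Coverage over all protein-coding genes averaged 3.96% in TAC replicate 2 and between 5.14% and 8.88% in the other lists. On the 40 genes TAC replicate 2 also stood apart in position: it shared 8.89% of the covered base pairs (bp in both lists over bp in either) with TAC replicate 1, whereas the replicates of the other points shared 25.5% to 27.5%. These shares do not set replicates of a point apart from other pairs, since lists with the same replicate number shared 32.4% (E14.5 and neonatal replicate 1), 38.4% (E14.5 and neonatal replicate 2) and 29.6% (neonatal and adult replicate 2). The main comparisons with TAC are given with and without TAC replicate 2. In addition, the headers state that the input was scaled to the precipitated library for both E14.5 lists, neonatal replicate 1 and adult replicate 1, and the reverse for the other 4.

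The list was far from uniform. Averaged over the 8 lists, coverage ranged from 0 to 42.0% of the gene span, with a median of 4.52% over the 40 genes. Peaks were present in all 8 lists on 19 of the 40 (47.5%), against 34.9% of all protein-coding genes, and in none on 3 (7.5%), against 18.1%. These shares depend on gene length, and the median member spanned 38.5 kb. Among genes of about the length of Col3a1 (38.2 kb), 50.6% had peaks in all 8 lists. For the lengths of Fbn1 and Tcf21 it was 88.8% and 2.0%. The shares over all genes therefore do not show more peaks on the members than on genes of like length. The 19 were Col5a1, Col4a2, Col4a1, Col6a3, Col8a1, Eln, Fbn1, Ecm1, Fstl1, Sparc, Ccdc80, Tnc, Timp3, Mmp14, Timp2, Mmp2, Pdgfrb, Ddr2 and Acta2. The 3 without any peak were Col3a1, which encodes the fibrillar collagen of reticular fibres, Lum, which encodes the keratan sulphate proteoglycan lumican, and Tcf21. In the gene's own length class, that is among 1046 to 1049 protein-coding genes of like length, no peak in any list was found for 2.87% of genes in the class of Col3a1, for 20% in that of Lum and for 41.4% in that of Tcf21, whose span is 2.88 kb. The heat map of all 40 genes shows both ends of this range side by side.

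**Figure D1:**
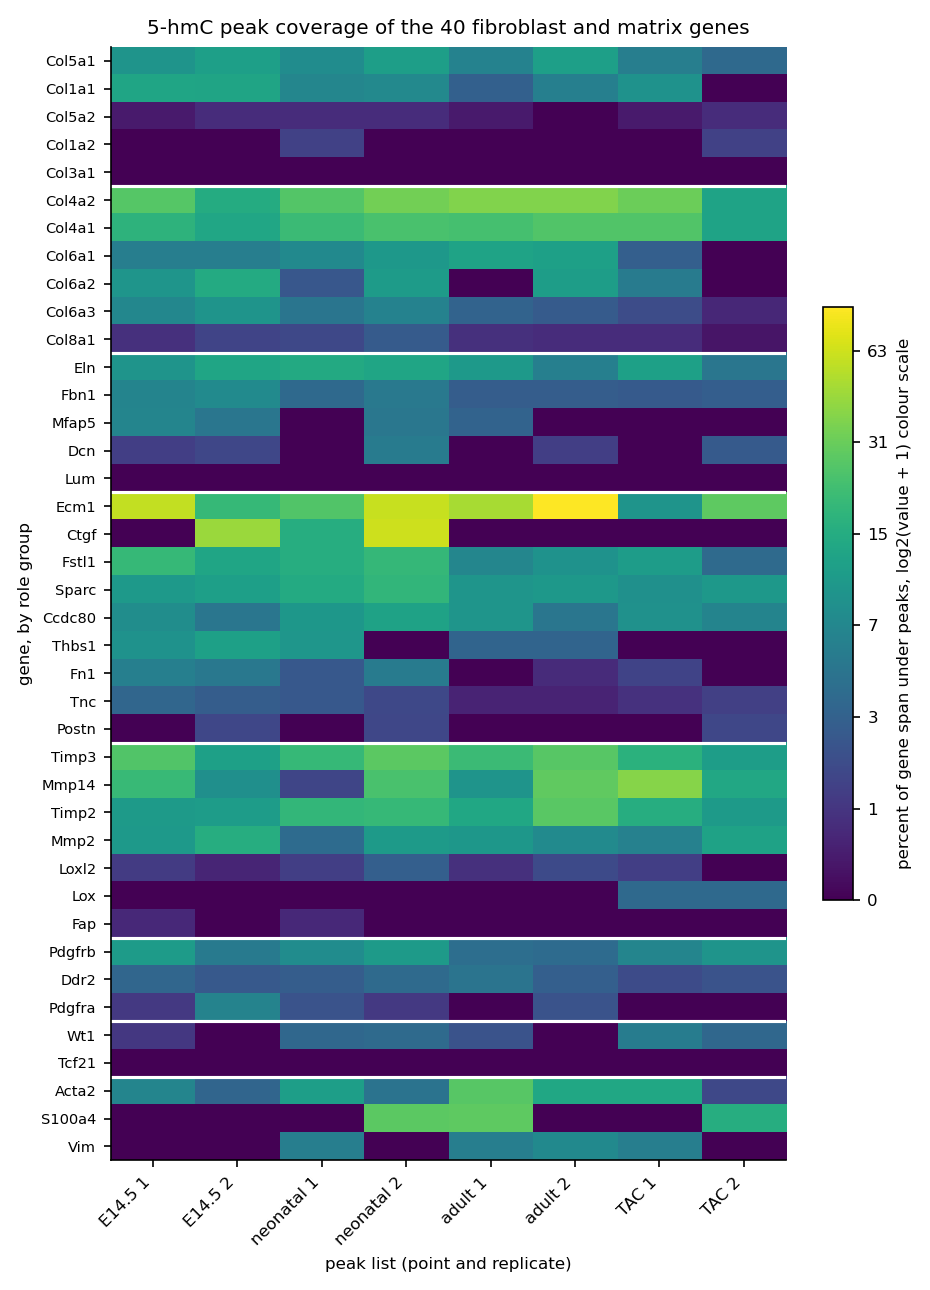
Percent of each gene span under 5-hmC peaks for the 40 genes (rows, in role groups parted by white lines) in the 8 peak lists (columns). The colour is on a log2(value + 1) scale; Col3a1, Lum and Tcf21 are at 0 in every list, whereas Col4a2, Col4a1, Timp3, Timp2 and Ecm1 exceed 9% in every list.

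Among the fibrillar collagens, which build the tension-bearing fibres of the interstitium, coverage was low except on Col5a1 and Col1a1. Col5a1, a regulatory chain of these fibres on chromosome 2, was covered to 9.25% and 11.6% in the E14.5 lists, to 7.83% and 11.4% in the neonatal lists, to 6.31% and 11.5% in the adult lists and to 5.83% and 3.64% after TAC, both TAC lists lying below the other 6, which overlapped. Col1a1 was covered to 13.0% and 12.7% in the E14.5 lists, to 6.78% and 7.25% in the neonatal lists, to 2.98% and 5.96% in the adult lists and to 8.94% and 0 after TAC, so that E14.5 was highest and the TAC replicates lay on both sides of the adult. Its partner chain Col1a2, with which it forms type I collagen, had 1 peak in neonatal replicate 1 and 1 in TAC replicate 2 and none in the other 6 lists. The mean over the 8 lists was 7.21% for Col1a1 and 0.349% for Col1a2, and Col5a2, another chain of these fibres, reached at most 0.777% in any list.

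The paper judged the purity of the CMCs by flow cytometry for sarcomeric actinin, for which most but not all cells were positive. It also reports barely detectable RNA of fibroblast markers. Absence of peaks on fibroblast and endothelial markers was an additional control, with Vim, Col1a2 and Tcf21 given as examples. Vim, which encodes the intermediate filament of mesenchymal cells, had no peak in either E14.5 list, 5.88% and 0 in the neonatal lists, 5.88% and 7.35% in the adult lists and 5.88% and 0 after TAC, each value above 0 standing for 1 peak on a gene of 8.52 kb. At no point did the replicates share a covered base on Vim, so that both adult peaks lay apart. Tcf21 had none in any list, and the nearest peak lay between 0.437 kb (E14.5 replicate 2) and 50.2 kb (TAC replicate 1) from its span. Together with Col1a1, Col3a1, Pdgfra, Dcn, Lum, Postn and Ddr2, these 3 make a fibroblast marker list of 10, all of them members. Since the methods name these 3 as free of peaks in these data, part of a low value of the 10 was fixed by the choice of genes. The mean coverage of these 10 was 1.74% over the 8 lists, which was 0.263 times the mean of other protein-coding genes of the same length classes, and 1 of the 10 exceeded its class. By list the ratio ran from 0.188 (TAC replicate 2) to 0.466 (E14.5 replicate 2), so that it was below 1 in 8 of 8 lists. Of all 40 members, 19 (47.5%) exceeded their class, against 33.2% of other protein-coding genes. The low ratio thus belongs to the markers chosen and not to the whole list. At 0 in all lists were Col3a1, Tcf21 and Lum, whereas Ddr2, a collagen receptor, had peaks in all 8 and Col1a1 in 7, the latter at 1.12 times its class.

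The same measure on 20 CMC markers gave 3.08 times the class mean, with 17 of the 20 above their class. It was 3.49 to 4.28 in the 4 E14.5 and neonatal lists and 2.12 to 2.32 in the 4 adult and TAC lists. Endothelial markers (12 genes) were at 1.26, smooth muscle and pericyte markers (8 genes) at 1.73, and immune markers (10 genes) at 1.44. The members above their class were 8 of 12, 4 of 8 and 3 of 10 in these lists, and 1 immune gene had a peak in all 8 lists, as did 1 fibroblast gene. Among these lists, the mean of the fibroblast markers was the only one below 1 over the 8 lists. A further 50 matrix genes outside the 40, such as laminins, fibulins and nidogens, were at 1.48, with 28 of the 50 above their class and 1 without any peak. The ratios are descriptions of these gene lists, and no test was run over list members. In pooled DNA, a larger share of cells that carry the mark and more of the mark in each cell cannot be told apart.

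**Figure D2:**
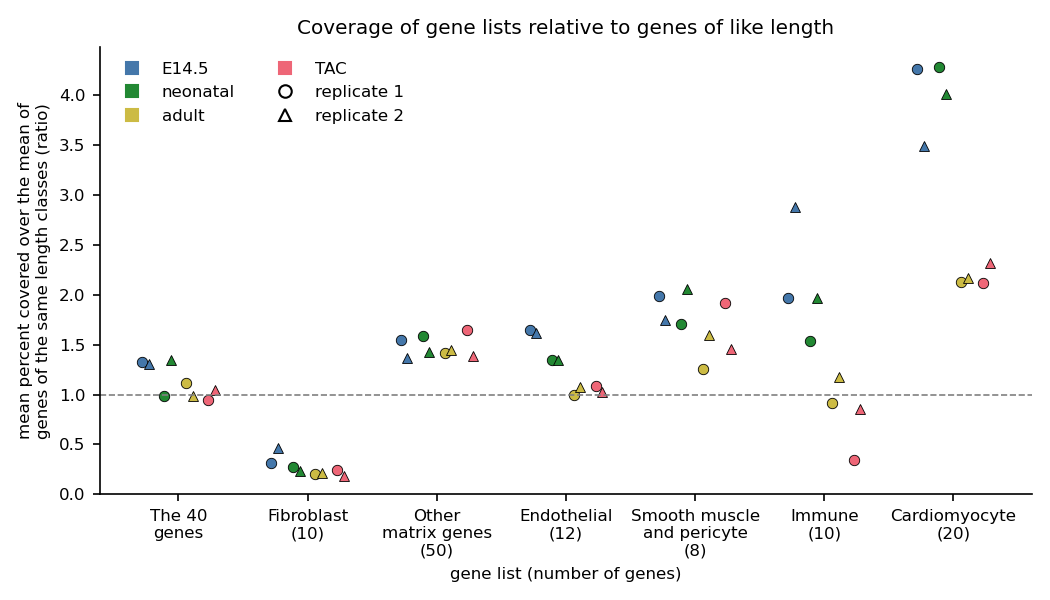
Mean percent covered of each gene list over the mean of other protein-coding genes of the same length classes (vertical axis, ratio; dashed line, 1) for each of the 8 samples (colour, point; circle, replicate 1; triangle, replicate 2). The fibroblast markers lie between 0.188 and 0.466 and the CMC markers between 2.12 and 4.28, without overlap.

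The mean coverage of the 40 genes was 7.91% and 7.25% in the E14.5 lists, 6.77% and 11.2% in the neonatal lists, 7.63% and 8.82% in the adult lists and 6.3% and 4.41% after TAC. Relative to the length classes these means were 1.33 and 1.31, 0.981 and 1.35, 1.12 and 0.983, and 0.946 and 1.05, in the same order. The ratio at E14.5, 1.32 ± 0.0107 (SD, n = 2), lay above both adult lists and both TAC lists, whereas the neonatal ratio, 1.17 ± 0.263, overlapped all other points. The closeness of both E14.5 lists depended on the genes counted. With genes of at least 5 kb the E14.5 ratio was 1.32 ± 0.175, and without Ecm1 it was 1.19 ± 0.1. The median gene was at 6.27% and 5.17% at E14.5, above the class medians of 3.49% and 3.57%, but 3.17% and 2.8% in adult, below the class medians of 3.63% and 4.6%, and 2.73% and 1.61% in TAC, below 3.56% and 3.11%. Mean and median thus lay on the same side of the length classes at E14.5 and on opposite sides in adult replicate 1 and TAC replicate 2. Part of the mean rested on few genes: Col4a1 and Col4a2 together held 25% (E14.5 replicate 2) to 50.3% (adult replicate 1) of all base pairs covered on the 40 genes, although they make up 11.9% of the summed span. Without this pair the ratio was 1.23 at E14.5, 0.898 in adult and 0.861 in TAC, and without Ecm1, the most covered member, 1.19, 0.867 and 0.924.

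By role, the 5 fibrillar collagens were at 0.855 ± 0.089 times their length classes at E14.5 (SD, n = 2 here and below), at 0.497 ± 0.0129 in the neonatal lists, at 0.37 ± 0.0914 in the adult lists and at 0.503 and 0.29 in TAC replicates 1 and 2. The 6 other collagens, which include type IV and type VI chains, were above 1 at each point, with 1.78 ± 0.0971 at E14.5, 1.6 ± 0.162 in the neonatal lists, 1.84 ± 0.106 in the adult lists and 1.77 and 1.02 after TAC. Over the 8 lists Col4a2 and Col4a1 were at 4.1 and 3.01 times their class. Col6a1, Col6a2, Col6a3 and Col8a1 were at 1.09, 1.07, 0.647 and 0.176. The 9 glycoproteins and matricellular proteins were at 2.16 ± 0.149 at E14.5 and 1.28 ± 0.111 in adult CMCs, without overlap, and the 5 proteoglycans and elastic fibre genes at 0.935 ± 0.128 and 0.375 ± 0.198. After TAC these groups were at 0.635 and 1.32, and at 0.458 and 0.51. Short genes weighed on the mean of the 9. In E14.5 replicate 1, where it was 12.6%, Ecm1 was at 57.5%. In E14.5 replicate 2, where it was 12.7%, Ctgf was at 44.0% from 1 peak. The 7 crosslinking enzymes, proteases and inhibitors were at 1.43 ± 0.3 at E14.5 and 1.27 ± 0.231 in adult CMCs, and at 1.71 in both TAC lists, above both adult lists (1.1 and 1.43). Their mean coverage overlapped, at 7.66% and 13.1% in the adult lists and 11.6% and 7.35% after TAC. Mmp14, on 10.9 kb, weighed on this mean, with 38.2% and 13.8% after TAC against 9.23% and 28.5% in the adult. The 3 receptors were at 0.885 ± 0.0126, 0.417 ± 0.0661, and 0.475 and 0.947 after TAC. The 3 cytoskeletal and calcium-binding genes went the other way, from 0.268 ± 0.0965 at E14.5 to 0.991 ± 0.308 in the neonatal lists, but spread from 0.622 to 2.63 in the adult lists. S100a4, on 2.28 kb, weighed on these means. It had 1 peak in neonatal replicate 2 (27.7%) and 1 in adult replicate 1 (28.3%), and none in the other list of either point. Both transcription factors together stayed at or below 0.444 in every list. With 2 lists a point, an exact permutation test of any such difference cannot go below a two-sided p of 0.33, so these are descriptions.

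Col4a1 and Col4a2 encode the chains of the ubiquitous type IV collagen and lie head to head on chromosome 8, sharing 22 bp at their starts. Col4a2 was covered to 26.2% and 14.9% in the E14.5 lists, to 25.6% and 33.1% in the neonatal lists, to 37.0% and 36.8% in the adult lists and to 31.3% and 12.4% after TAC. Averaged over the lists it was at 4.1 times its class, above 98.0% of genes of like length. Col4a1 was covered to 17.2% and 13.3%, 20.4% and 23.4%, 22.5% and 25.2%, and 25.3% and 12.4% at the same points, 3.01 times its class. Both adult lists were above all E14.5 and neonatal lists for Col4a2, and all neonatal and adult lists above both E14.5 lists for Col4a1, whereas TAC replicate 2 held the lowest value of each gene. Their peaks were spread over introns: at most 6 of 65 peak centres (TAC replicate 1) fell on exons. The shared promoter itself was free of peaks, and its RefSeq windows, 300 bases at each start, held 37 CpG for Col4a1, the most of any member's window, and 33 for Col4a2. Among the other collagens Col6a1, a chain of the beaded filaments of type VI collagen, was covered to 5.81% in both E14.5 lists, to 7.45% and 9.99% in the neonatal lists, to 12.6% and 11.8% in the adult lists and to 2.9% and 0 after TAC, and Col8a1, a short-chain collagen, had the lowest coverage of the group with a mean of 1.17%.

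**Figure D3:**
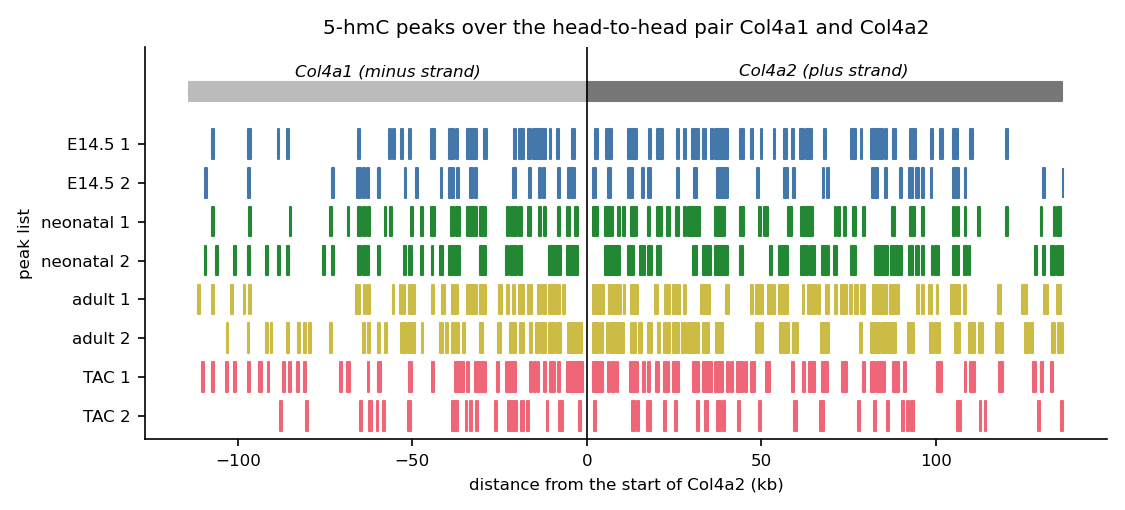
Peaks (bars) of the 8 lists over Col4a1 and Col4a2, by distance from the start of Col4a2 in kb (horizontal axis; negative values lie in Col4a1). Peaks lie over both genes and leave the shared start free, and both adult lists cover 37.0% and 36.8% of Col4a2 against 26.2% and 14.9% at E14.5.

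Proteoglycans and elastic fibre genes ranged from Eln (mean 10.3%), which encodes elastin, to Lum (0). The 9 glycoprotein and matricellular genes held the highest member of all, Ecm1, and in Postn (mean 0.591%) a hallmark of activated fibroblasts that was almost bare. Ecm1, a secreted glycoprotein, was covered to 57.5% and 19.3% in the E14.5 lists, to 25.4% and 59.7% in the neonatal lists, to 48.5% and 88% in the adult lists and to 9.24% and 28.2% after TAC, without overlap only between adult and TAC. Its span is 5.42 kb, so that a peak of 501 bp covers 9.24% of it and 1 to 3 peaks made these values. Ctgf, a growth factor-binding matricellular protein on 3.24 kb, had a peak in E14.5 replicate 2 (44.0%) and in both neonatal lists (15.5% and 62.0%) and none in E14.5 replicate 1 or any adult or TAC list. Among enzymes and inhibitors, Timp3 and Timp2, which inhibit metalloproteinases, had means of 19.9% and 15.8%, Mmp14, which cuts collagen at the cell surface, 17.9%, and Fap, a protease of activated fibroblasts, 0.171%. Timp3 lies entirely within Syn3, on the opposite strand, and the peaks do not tell the strands apart. The rest of Syn3 was covered to 3.17% to 6.47%, against 11.1% to 27.9% for the span of Timp3. Likewise 18.7% of the span of Timp2 is shared with Cep295nl. Of both transcription factors, Wt1 had a mean of 2.44% and Tcf21 of 0. Among receptors the mean ran from 7.3% on Pdgfrb, a pericyte and fibroblast receptor, to 1.63% on Pdgfra, a fibroblast receptor, and of the cytoskeletal genes Acta2, which encodes smooth muscle actin, was highest with 10.1% and Vim lowest with 3.12%.

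Bases that lay under a peak in all 8 lists were held by 4 of the 40 genes (10%), against 4.76% of other protein-coding genes. They came to 2.38 kb in all, which was 0.113% of the summed span of the 40 genes, against 0.0446% of the span of other protein-coding genes. The shares of genes are not matched for length, and a longer span has more room for such bases. The 4 genes were Ccdc80 (1084 bp), Col4a1 (844 bp), Col4a2 (294 bp) and Mmp2 (159 bp). The longest such stretch of Ccdc80, Col4a2 and Mmp2 is shown for its central bases, up to 300, because these are positions on which all lists agreed. Sequences are from GRCm38.p6, 5′ to 3′ on the strand of the gene, with CpG in capitals. The stretch on Ccdc80, a secreted matrix protein, lies in a coding exon, and its printed bases (chr16:45096039-45096338, plus strand) hold 9 of its 31 CpG. Those on Col4a2 (chr8:11325838-11326131, plus strand) and Mmp2 (chr8:92851211-92851369, plus strand) are intronic.
Ccdc80: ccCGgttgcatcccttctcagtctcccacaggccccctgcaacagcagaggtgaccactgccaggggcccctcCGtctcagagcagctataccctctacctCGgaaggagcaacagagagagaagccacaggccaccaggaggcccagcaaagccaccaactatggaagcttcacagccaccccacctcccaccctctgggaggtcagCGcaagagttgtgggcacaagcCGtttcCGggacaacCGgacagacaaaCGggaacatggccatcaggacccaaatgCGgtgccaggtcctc
Col4a2: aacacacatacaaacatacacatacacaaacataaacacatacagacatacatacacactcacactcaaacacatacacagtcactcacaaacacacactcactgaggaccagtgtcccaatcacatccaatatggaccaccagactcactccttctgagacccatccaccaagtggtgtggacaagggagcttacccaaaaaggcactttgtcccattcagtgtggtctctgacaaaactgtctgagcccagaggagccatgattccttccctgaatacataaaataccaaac
Mmp2: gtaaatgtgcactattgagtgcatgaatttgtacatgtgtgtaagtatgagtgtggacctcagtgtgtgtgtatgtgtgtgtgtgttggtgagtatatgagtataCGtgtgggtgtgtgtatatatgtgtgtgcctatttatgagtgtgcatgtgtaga

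Both intronic stretches were poor in CpG, with 0 on Col4a2 and 1 on Mmp2. Over the full stretches, CA or TG dinucleotides numbered 22.8 per 100 bp on Col4a2 and 27.7 on Mmp2, against 14.1 in the stretch of Ccdc80 and 15.3 over all windows of 501 bp on the 40 genes. Over whole peaks, CpG were denser than elsewhere on the genes: the 40 genes had 1.25 (TAC replicate 2) to 1.66 CpG per 100 bp under their peaks and 1.06 to 1.1 outside them.

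Runs of 10 or more CA units, read on either strand, differed between replicates. They were present in 6.93% (replicate 1) and 19.4% (replicate 2) of the members' peaks in the E14.5 lists, 6.28% and 17.2% in the neonatal lists, 5.29% and 15.4% in the adult lists and 7.02% and 13.0% after TAC. Replicate 2 was higher at all 4 points. Over all peaks of the lists the shares were 6.03% and 21.8%, 6.55% and 19.2%, 6.17% and 15.2%, and 6.9% and 8.11%, so that replicate 2 was again the higher at each point. In windows of 501 bp of the 40 genes that lay under no peak, 4.44% held such a run. The part of these runs in the coverage values was not tested.

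During development, 8 of the 40 genes (20%) had both neonatal lists above both E14.5 lists, where 19.8% of all protein-coding genes did, and 4 (10%) had both below, where 5.04% of all did. In this and the later comparisons of points, the shares of all genes are not matched for length. The 8 that were higher were Timp2, Col4a1, Sparc, Ccdc80, Wt1, Col6a1, Loxl2 and Col8a1, and the 4 that were lower were Col1a1, Fbn1, Col6a3 and Tnc. Among these 12 the largest differences in mean coverage (neonatal minus E14.5) were 8.31 points for Timp2 and 6.62 points for Col4a1, and -5.87 points for Col1a1 and -2.72 points for Fbn1. The split depended on the scale, since the neonatal lists cover more of all genes: with each list divided by its mean over all genes, 4 members were higher and 12 lower, against 12.0% and 15.1% of all genes. By limma on log2(percent covered + 1), with Benjamini-Hochberg adjustment over 16049 genes, no member passed 0.05 (lowest adjusted p = 0.732), where 0.523% of all genes tested did. None had an unadjusted limma p under 0.05, against 6.89% of all genes.

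Between the neonatal and the adult point, coverage was mostly lower in the adult among the genes whose replicates did not overlap. Both adult lists lay below both neonatal lists for 14 of the 40 genes (35.0%), against 16.6% of all protein-coding genes, and above them for 3 (7.5%), against 12.6%. The shares of all genes are not matched for length. They include the 18.1% of genes without a peak in any list, which cannot differ, against 7.5% of the members. The counts therefore do not set the members apart from genes of like length. With coverage divided by the mean of each list, 15 were lower (20.9% of all genes) and 1 higher (12.1%). The 14 were Ctgf, Fstl1, Sparc, Eln, Pdgfrb, Ccdc80, Fn1, Col6a3, Wt1, Col1a1, Fbn1, Tnc, Col8a1 and Col5a2, and the 3 were Acta2, Col4a2 and Col6a1. Among these the largest differences of the means (adult minus neonatal) were -38.7 points for Ctgf and -9.28 points for Fstl1, and 12.1 points for Acta2 and 7.52 points for Col4a2. When the same number of peaks was drawn from each list, 8 members (20%) were lower, against 9.76% of all genes. Of the 50 other matrix genes, 15 (30.0%) were lower and 5 (10%) higher.

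Fn1, which encodes the scaffold glycoprotein fibronectin, was covered to 5.97% and 4.99% in the E14.5 lists, to 2.43% and 5.47% in the neonatal lists, to 0 and 0.739% in the adult lists and to 1.48% and 0 after TAC. Both adult lists were below all 4 earlier lists, and adult minus neonatal was -1.84 ± 0.64 (SE) on the log2(percent + 1) scale (limma, adjusted p = 0.435). Fbn1, which encodes the microfibril protein fibrillin-1, was at 6.58% and 7.55%, 3.61% and 5.09%, 2.78% and 2.73%, and 2.56% and 2.83% at the 4 points, so that each point lay below the one before until the adult and then overlapped with TAC. Col6a3, a chain of type VI collagen, was at 6.99% and 9.16%, 4.76% and 6.36%, 3.15% and 2.6%, and 1.82% and 0.65%, without overlap between any neighbouring points. Tnc, which encodes the developmental matricellular protein tenascin C, was at 3.38% and 2.75%, 2.44% and 1.63%, 0.574% and 0.574%, and 0.908% and 1.36%, lowest in the adult. Fstl1, a secreted follistatin-like glycoprotein, was at 19.1% and 13.0%, 15.4% and 18.8%, 6.87% and 8.85%, and 10.9% and 3.69%. In the opposite direction Acta2 was at 6.66% and 3.33%, 11.4% and 4.48%, 26.6% and 13.4%, and 13.6% and 1.64%, its adult lists above the earlier ones and its TAC lists spread from the lowest value of the gene to the adult range. Fstl1 and Acta2 thus moved in opposite directions between the neonatal and adult lists, each without overlap.

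**Figure D4:**
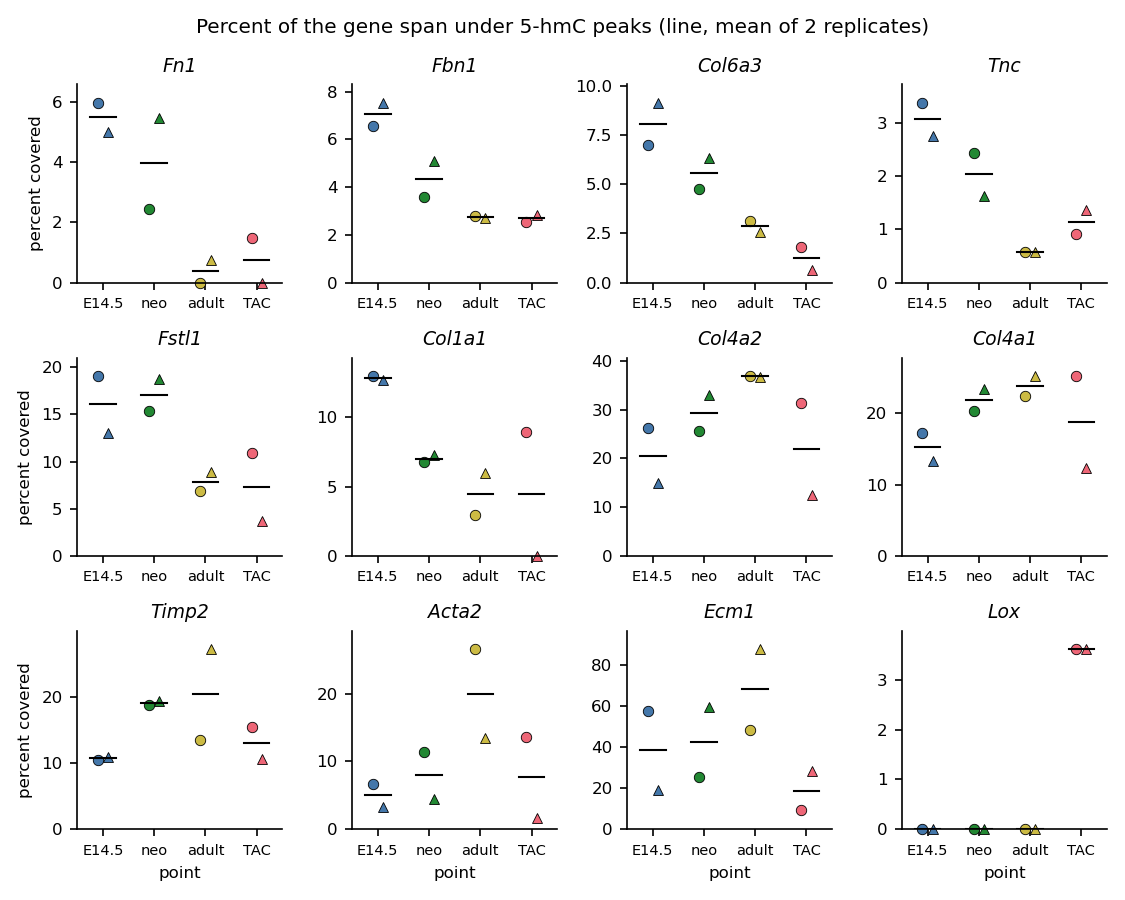
Percent of the gene span under peaks for 12 genes at the 4 points (circle, replicate 1; triangle, replicate 2; line, mean; vertical axes differ between panels). Fn1, Fbn1, Col6a3, Tnc, Fstl1 and Col1a1 are highest before the adult point, Col4a2 and Acta2 are highest in the adult, and Lox is above 0 only in the 2 TAC lists, at 3.63%.

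For the step from neonatal to adult, no member passed the limma threshold (lowest adjusted p = 0.435), whereas 1.4% of all genes tested did. At an unadjusted limma p under 0.05 there were 3 members, Fn1, Tnc and Ctgf, which is 8.11% of the 37 members tested, against 9.89% of all genes. In the comparison of the adult with E14.5, which was added after the data were seen, 11 of the 40 (27.5%) were lower in both adult lists, against 13.9% of all genes, and 6 (15%) were higher, against 22.2%. Here too the shares of all genes are not matched for length. After division by the mean of each list these counts were 17 (23.0% of all genes) and 3 (15% of all genes). No member passed the limma threshold (lowest adjusted p = 0.201), where 1.75% of all genes did. The median log2 difference of the members was -0.25, beside 0.16 for all genes tested. The members with an unadjusted p under 0.05 were Fn1 (-2.29 ± 0.64, SE), Tnc (-1.36 ± 0.372), Fbn1 (-1.1 ± 0.369) and Col6a3 (-1.22 ± 0.447), and all 4 were lower in the adult. They made up 10.8% of the members tested, against 16.7% of all genes.

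Markers of other cardiac cells moved over the same points. The endothelial list was at 1.65 and 1.62 times its length classes in the E14.5 lists, at 1.35 in both neonatal lists, at 0.992 and 1.08 in the adult lists and at 1.09 and 1.03 after TAC. The immune list was at 1.97 and 2.88, 1.54 and 1.97, 0.912 and 1.18, and 0.346 and 0.853 in the same order. The fibroblast list was at 0.318 and 0.466, 0.278 and 0.234, 0.2 and 0.214, and 0.247 and 0.188. By their means all 3 were highest at E14.5, as was the list of 40. The smooth muscle and pericyte list (1.87, 1.89, 1.43 and 1.69 at the 4 points) and the 50 other matrix genes (1.46, 1.51, 1.44 and 1.52) were not, and the CMC list was at 4.28 and 4.01 in the neonatal and at 2.13 and 2.17 in the adult lists. The part of other cells in the lower adult coverage of the 14 genes was not tested, and point and way of isolation cannot be told apart.

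Stretches of bases were traced to see where the early peaks lay. On 21 of the 40 genes (52.5%) some bases lay under peaks in both E14.5 lists and in none of the 4 adult and TAC lists, against 31.3% of other protein-coding genes, and these amounted to 18.1 kb or 0.858% of the members' span, against 0.52% of the span of other genes. Col6a3 (2415 bp), Fbn1 (2305 bp) and Col5a1 (2191 bp) held most. The shares of genes, here and for the further stretches below, are not matched for length. A longer span has more room for such bases, so these shares do not set the members apart from genes of like length. In the reverse direction 15 of the 40 (37.5%), against 36.1% of other genes, had bases in both adult lists and no E14.5 list; of these 27.8 kb, 43.8% lay on Col4a2 and 19.0% on Col4a1. On 10 genes (25%, against 17.7% of other genes) bases lay in all 4 E14.5 and neonatal lists and in no later list. Col6a3, Fstl1 and Fbn1 were among these 10 and also among the 14 genes with less coverage in the adult than in the neonatal lists, and the central 300 bases of their longest such stretches are given because they are the positions at which the mark was found in 4 of 4 early and 0 of 4 later lists. All 3 are intronic: Col6a3 (chr1:90818997-90819296, minus strand, 24.8 kb from the start) with 6 CpG, Fstl1 (chr16:37778727-37779026, plus strand, 1.82 kb from the start) with 6, and Fbn1 (chr2:125380385-125380684, minus strand, 126.0 kb from the start) with 3. The sequence from Col4a2 (chr8:11321083-11321382, plus strand, intronic, 3 CpG) is the centre of the longest stretch of the reverse kind, 2622 bp in both adult lists and in neither E14.5 list.
Col6a3: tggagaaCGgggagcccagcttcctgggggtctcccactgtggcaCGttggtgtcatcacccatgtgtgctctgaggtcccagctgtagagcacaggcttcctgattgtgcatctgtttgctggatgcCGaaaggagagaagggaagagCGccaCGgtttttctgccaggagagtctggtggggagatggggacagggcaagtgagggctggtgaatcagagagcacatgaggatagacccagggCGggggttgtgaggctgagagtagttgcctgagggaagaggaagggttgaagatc
Fstl1: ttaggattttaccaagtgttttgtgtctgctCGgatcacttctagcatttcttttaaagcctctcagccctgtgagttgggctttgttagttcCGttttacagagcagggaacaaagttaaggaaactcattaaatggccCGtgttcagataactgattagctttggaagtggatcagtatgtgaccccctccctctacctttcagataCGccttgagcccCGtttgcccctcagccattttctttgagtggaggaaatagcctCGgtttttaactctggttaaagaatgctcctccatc
Fbn1: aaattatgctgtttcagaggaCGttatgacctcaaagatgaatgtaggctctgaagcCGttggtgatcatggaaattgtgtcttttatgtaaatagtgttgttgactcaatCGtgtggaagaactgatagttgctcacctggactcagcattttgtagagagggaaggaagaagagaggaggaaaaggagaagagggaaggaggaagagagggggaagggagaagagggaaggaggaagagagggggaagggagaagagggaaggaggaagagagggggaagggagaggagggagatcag
Col4a2: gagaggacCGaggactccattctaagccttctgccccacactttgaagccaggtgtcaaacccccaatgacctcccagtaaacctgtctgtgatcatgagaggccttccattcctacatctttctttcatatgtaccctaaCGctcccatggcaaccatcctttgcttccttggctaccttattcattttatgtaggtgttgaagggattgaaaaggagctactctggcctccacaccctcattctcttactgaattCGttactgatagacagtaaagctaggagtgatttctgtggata

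The stretches were chosen by the lists in which they lie, and the contrast between early and late lists at them is a description.

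After TAC, both lists lay above both adult lists for 4 of the 40 genes (10%), against 4.63% of all protein-coding genes, and below them for 8 (20%), against 18.4%. Again the shares of all genes are not matched for length. After division by the mean of each list, 5 were higher and 6 lower, against 11.7% and 9.35% of all genes. With TAC replicate 1 alone, 10 members were higher and 11 lower than both adult lists, against 15.9% and 24.0% of all genes. The 4 that were higher were Pdgfrb, Lox, Wt1 and Tnc. The 8 that were lower were Ecm1, Col4a2, Col6a1, Timp3, Col5a1, Thbs1, Ddr2 and Col6a3. No fibrillar collagen was among the 4. Col1a1 was at 8.94% and 0 against 2.98% and 5.96% in the adult, Col1a2 at 0 and 1.39% against 0 and 0, and Col3a1 at 0 in all 4 lists. Postn, which is induced in fibroblasts of the loaded heart, was at 0 and 1.58% after TAC and at 0 in both adult lists, and Tnc, another gene of injury, at 0.908% and 1.36% against 0.574% and 0.574%.

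Pdgfrb, the receptor for PDGF-B on pericytes and fibroblasts, was covered to 6.74% and 9.16% after TAC against 4.09% and 3.77% in the adult, a difference of the means of 4.02 points. Wt1, a transcription factor of the epicardium, was covered to 5.61% and 3.5% after TAC against 2.13% and 0 in the adult, and the difference of the means was 3.49 points. Lox, lysyl oxidase, which crosslinks collagen and elastin, had no peak in any E14.5, neonatal or adult list and 1 peak in each TAC list, 3.63% of its span of 13.8 kb. The pair of peaks, both 501 bp wide, overlapped by 203 bp and lay on chromosome 18 with their centres 1404 and 1106 bp inside the gene from the nearest annotated start, across an exon and an intron. In limma this was the only member past the threshold, 2.21 ± 0.228 (SE) on the log2(percent + 1) scale (adjusted p = 0.0184), where 0.86% of all genes tested passed. This call rests on equal values within each point, and Lox entered the test only through its TAC lists, so that it had to differ. By limma it did not pass with coverage divided by the mean of each list (adjusted p = 0.0711), with the replicate number as a block (0.0676) or without either adult list (0.0639 and 0.0756). Without TAC replicate 2 the difference was again 2.21, but it then rested on 1 peak. Lox stayed in that fit only because the omitted list was still counted when genes were chosen for testing. That fit therefore does not bear on the call. At an unadjusted limma p under 0.05 there was 1 further member, Col6a1, so that 5.41% of the members tested were under it, against 7.02% of all genes.

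Among the genes with less coverage after TAC, Ecm1 had a mean of 68.2% ± 27.9 in the adult and 18.7% ± 13.4 after TAC (SD, n = 2) and Col4a2 of 36.9% ± 0.0917 and 21.9% ± 13.4, TAC minus adult differences of -49.5 and -15.0 points. Both adult values of Col4a2 exceeded both TAC values, of which TAC replicate 1 (31.3%) lay close to the adult level and TAC replicate 2 (12.4%) far below it. Col6a1 was at 12.6% and 11.8% in the adult and at 2.9% and 0 in TAC, -2.74 ± 0.675 (SE) by limma (adjusted p = 0.376). It passed the threshold when TAC replicate 1 was left out, but not when TAC replicate 2 was. Over all 16049 genes tested the median log2 difference between TAC and adult was -0.32, and that of the 37 members tested was -0.27.

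Near the start of genes, within 1 kb of a transcription start site (TSS), a peak was present in both lists of a point for 6 of the 40 genes at E14.5 (15%, against 11.1% of all protein-coding genes), 6 in the neonatal lists (15%, against 13%), 7 in the adult lists (17.5%, against 11.3%) and 5 after TAC (12.5%, against 7.37%). In TAC replicate 1 alone there were 8 (20%, against 20.2% of all genes). Timp2 and Mmp14 had such a peak in all 8 lists. Fstl1 had it in both lists at E14.5, neonatal and adult, Sparc and Ecm1 at neonatal, adult and TAC, Col8a1 at E14.5 and TAC, Thbs1 and Mfap5 at E14.5, Col6a3 in neonatal, and Col6a2 and Acta2 in adult. Sparc encodes the collagen-binding protein osteonectin. RefSeq promoter windows of 300 bases, which end shortly after a start, were matched for 24 of the 40 genes, and 9 of these had a window under a peak in any list, none of them in more than 5 lists. Those of Timp2, Mmp14 and Fstl1 were under a peak in 0 lists, so the peaks of these genes within 1 kb of a start lay outside the windows. The windows of Col8a1 (chr16:57754688-57754987, minus strand, 12 CpG) and Sparc (chr11:55420031-55420330, minus strand, 4 CpG) were under a peak in 5 lists each, and those of Col3a1 (chr1:45311288-45311587, plus strand, 0 CpG) and Tcf21 (chr10:22820094-22820393, minus strand, 8 CpG) in none. These 4 are given, from RefSeq on GRCm38.p6 with CpG in capitals, to set promoters under peaks beside promoters of genes without any peak on their span.
Col8a1: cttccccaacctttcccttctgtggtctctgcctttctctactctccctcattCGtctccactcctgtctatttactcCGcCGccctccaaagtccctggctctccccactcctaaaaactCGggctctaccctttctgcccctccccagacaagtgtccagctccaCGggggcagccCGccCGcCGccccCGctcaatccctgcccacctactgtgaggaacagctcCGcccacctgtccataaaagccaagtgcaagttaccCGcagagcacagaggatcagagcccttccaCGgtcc
Sparc: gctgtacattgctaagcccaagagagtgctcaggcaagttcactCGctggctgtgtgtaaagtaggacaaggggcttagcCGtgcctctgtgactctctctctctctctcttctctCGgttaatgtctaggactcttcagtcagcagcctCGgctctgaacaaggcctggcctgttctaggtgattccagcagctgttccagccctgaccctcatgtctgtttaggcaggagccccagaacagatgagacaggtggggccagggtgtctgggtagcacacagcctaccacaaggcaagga
Col3a1: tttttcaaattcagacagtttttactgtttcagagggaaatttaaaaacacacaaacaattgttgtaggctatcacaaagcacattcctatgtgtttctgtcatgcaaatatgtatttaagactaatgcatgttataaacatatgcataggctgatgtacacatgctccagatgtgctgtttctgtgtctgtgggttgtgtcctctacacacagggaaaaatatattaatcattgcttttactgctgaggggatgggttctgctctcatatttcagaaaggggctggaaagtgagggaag
Tcf21: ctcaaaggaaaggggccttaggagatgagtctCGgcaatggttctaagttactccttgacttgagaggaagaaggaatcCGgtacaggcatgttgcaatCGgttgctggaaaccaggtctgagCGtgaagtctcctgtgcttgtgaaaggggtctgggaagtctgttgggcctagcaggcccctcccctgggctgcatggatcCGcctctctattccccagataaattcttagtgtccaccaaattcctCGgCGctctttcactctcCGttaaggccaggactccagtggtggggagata

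Across the 40 genes, mean coverage went with CpG density (Spearman's rho 0.397 over genes, 0.525 over all protein-coding genes) and not with length (-0.0462, against 0.212 over all). Genes share libraries and base composition, so these are descriptions. Within the classes of both length and CpG density the ratio of the 40 genes was 1.19 at E14.5, 0.929 in adult and 0.899 in TAC. Peak centres fell on exons in 8.24% (adult replicate 1) to 15% (adult replicate 2) of cases, beside 8.95% of the members' span that is exonic, and the first, middle and last parts of the gene bodies (GBs), of equal length, held 36.2% to 42.9%, 23.9% to 34.9% and 25.4% to 35% of the centres.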

How the data were processed

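5-hmC was profiled by hMeDIP-seq in 8 samples, 2 biological replicates at each of 4 points. Per the methods, the authors mapped reads to mm10 with BWA 0.7.4-r385, removed duplicate and poorly mapped reads and called peaks per replicate against input with HOMER. The deposited lists hold peak positions and a score column that the authors left at 1 in every row. The reads, heights and depth of each library are therefore not known from them, and no counting interval can be given. Here the percent of each RefSeq gene span (GRCm38.p6) under merged peaks was computed and set beside the mean of other protein-coding genes in the same of 20 length classes. Genes with a peak in at least 2 lists were tested with limma 3.58.1 (R 4.3.3) on log2(percent + 1), all 8 lists in 1 fit, threshold 0.05 after Benjamini-Hochberg adjustment. The limma step was also run on simulated data with normal noise. No gene there had equal values within a point, as Lox had, so that run does not bear on its call. The 40 genes and all gene lists were chosen with earlier results of these data known, and gene lists were given no test.

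The genes named with values were the purity markers of the methods, the 5 with the highest mean coverage, those with the largest differences without overlap in each comparison, those past the limma threshold, those with a peak in all lists or none, the highest and lowest of each role group, and those with a promoter peak in both lists of a point. Fn1, Col6a1, Col5a2 and S100a4, outside this rule, were named after their values were seen, as were the genes whose sequences are shown. No source says more of the replicates than that they are biological, so p-values measure the spread between these samples. The sequence of 1 stretch held in all lists is not reported here.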

Additional observations from a re-analysis of the deposited data

How the results depend on the processing

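The ratio of the 40 genes to their length classes was 1.32 at E14.5, 1.05 in adult and 1.0 in TAC CMCs. At E14.5 it was 1.19 with classes of length and CpG density, 1.4 with GENCODE spans, 1.35 with 5 kb added on each side, 1.19 for peak centres per kb, 1.28 with equal numbers of peaks, 1.24 with peaks widened by 500 bp and 1.37 in regions common to both replicates. It was 0.929 in adult and 0.899 in TAC with classes of length and CpG density, and 1.11 in TAC with 5 kb added. Alternatives chosen after seeing the data gave 1.23, 0.898 and 0.861 without Col4a1 and Col4a2, 1.19, 0.867 and 0.924 without Ecm1, and 1.62, 0.741 and 0.643 with medians, for E14.5, adult and TAC. Single lists ranged from 1.31 to 1.33, 0.981 to 1.35, 0.983 to 1.12 and 0.946 to 1.05 at the 4 points. The narrow range at E14.5 depended on the genes counted, since the SD was 0.175 with genes of at least 5 kb and 0.1 without Ecm1.

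With coverage over the mean of all genes, 4 members were higher and 12 lower from E14.5 to neonatal, 1 higher from neonatal to adult, and 3 higher and 17 lower from E14.5 to adult. From E14.5 to neonatal 7 were lower with equal numbers of peaks (17.5%, against 6.91% of all genes), 2 with peaks widened (5%, against 5.8%) and 2 for peak centres per kb (against 3.63%), and from neonatal to adult 8 were lower with equal numbers of peaks. No share of all genes in these counts is matched for length. With 1 list left out the rule is easier to meet. The counts were then 11 to 16 higher and 5 to 11 lower from E14.5 to neonatal, and 5 to 10 and 14 to 20 from neonatal to adult. They were 5 to 10 and 11 to 17 from adult to TAC, and 6 to 12 and 12 to 20 from E14.5 to adult. The share of all genes was found only without TAC replicate 2 (15.9% higher and 24.0% lower, beside 10 and 11 members). The other counts therefore do not set the members apart from other genes. A promoter peak within 2 kb was held by 11, 15, 13 and 11 members at the 4 points (19%, 23.8%, 21.5% and 15.3% of all genes), and in either list by 16, 19, 13 and 13 (31%, 34.2%, 32.2% and 30.3%). With 1 list of a point in place of both, an alternative chosen after seeing the data, it was 10 to 12, 12 to 13, 10 and 8 to 10 members. Here the share of all genes was found only for TAC replicate 1 (20.2%, beside 8 members), so the other counts have no reference.

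The replicate numbers pair no samples by the labels, and deviations of same-numbered lists correlated between 0.018 and 0.231 over genes. With a replicate block 0 members passed for TAC minus adult (Lox, limma adjusted p = 0.0676), and 0, 109 and 81 of all genes passed for the 3 steps, against 84, 225 and 138. With coverage over the mean of all genes 0 members passed. With 1 adult or TAC list left out, TAC minus adult was 2.21 for Lox and between -3.72 and -1.76 for Col6a1. Without a TAC list, Lox had 1 peak left and was tested only because the omitted list was counted when genes were chosen. The fits without a TAC list therefore do not bear on the call of Lox. The adult and TAC ratios lay on both sides of 1 across the alternatives, and the split from E14.5 to neonatal turned from more members higher to more lower with coverage over the mean of all genes. The depth of each library, which can affect how many peaks are found, is unknown from the lists.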

Other observations

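Among the 50 other matrix genes, both neonatal lists lay above both E14.5 lists for 15 (30%, against 19.8% of all protein-coding genes) and below them for 1, Col5a3. As for the members, the shares of all genes are not matched for length. From neonatal to adult, 15 (30%, against 16.6%) were lower and 5 (10%, against 12.6%) higher. After TAC 4 (8%, against 4.63%) were higher, Cilp, Col12a1, Efemp1 and Col14a1, and 10 (20%, against 18.4%) lower. None of the 48 of these genes tested by limma passed the threshold in any comparison.

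The nearest peak to the span of Col3a1 lay between 2.73 kb (adult replicate 1) and 160.0 kb (adult replicate 2) away, and that to Lum between 7.15 kb (adult replicate 2) and 116.0 kb (adult replicate 1). Near Tcf21 a peak of E14.5 replicate 2, 0.437 kb away, lay within 1 kb of its start, although no peak touched the gene.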
